A study of Mus musculus with 12 samples.

Results

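Ly6a, Ly6c1, Ly6c2 and Ly6e encode surface antigens of the Ly6 family and were described in iNKT cells, the invariant natural killer T lymphocytes, which recognise lipid antigen on CD1d. The members were the rows of the deposited expression table with these symbols, 4 of 24781 genes, and all 4 passed the filter on low values (above 1 deposited unit in at least 3 libraries), as did 5138 genes in all. The study sorted 100 cells per library from thymus or lung of mice aged 6 weeks, and all groups shared the gate TCRbeta+NK1.1+CD1d tet+CXCR6+. Each tissue gave 3 libraries of CD244-positive and 3 of CD244-negative cells, hence 4 groups. CD244-positive cells are named the C2 subset and CD244-negative cells the C1 subset, and no genotype or strain was given in the labels used here. The replicates are called independent library preparations and no separate animals are named, so p-values measure only how these libraries vary, possibly for technical reasons.

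Ly6 proteins are small, disulphide-rich molecules of a single extracellular domain that a glycosylphosphatidylinositol (GPI) anchor holds in the outer leaflet of the plasma membrane. Many of them are induced by interferons, and in T cells they are used as markers of maturation, activation and memory. Ly6a encodes the antigen Sca-1, known from haematopoietic stem cells and from activated and memory T cells. Ly6c1 and Ly6c2 encode the antigen Ly6C, found on monocytes, on memory CD8 T cells and, for Ly6c1, on endothelium. Ly6e encodes a thymocyte antigen that is also expressed widely outside the thymus and is induced by type I interferon.

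The 4 genes lie within 157 kb of chromosome 15 (build mm10, GENCODE M21). Ly6e occupies chr15:74955051-74959905 on the plus strand. Ly6a (chr15:74994877-74998031), Ly6c1 (chr15:75044018-75048830) and Ly6c2 (chr15:75108158-75111970) lie on the minus strand. Between them the table holds 1 other gene, Ly6i, which had 0.99 molecules over all 12 libraries. The next genes to the left were Cyp11b2 with no molecule and 2010109I03Rik with 3, and to the right Ly6g with no molecule and Ly6f with 1.49.

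Ly6c1 and Ly6c2 are near-identical copies, and their coding sequences are shown because this bears on how molecules were assigned to each. The coding sequences of the isoforms Ly6c1-201 and Ly6c2-201 (GENCODE M21 transcripts) have 396 bases each and differ at 9 of them, without gaps. The first 300 bases from the start codon are shown, and capitals mark the 7 bases in them that differ between both.
Ly6c1: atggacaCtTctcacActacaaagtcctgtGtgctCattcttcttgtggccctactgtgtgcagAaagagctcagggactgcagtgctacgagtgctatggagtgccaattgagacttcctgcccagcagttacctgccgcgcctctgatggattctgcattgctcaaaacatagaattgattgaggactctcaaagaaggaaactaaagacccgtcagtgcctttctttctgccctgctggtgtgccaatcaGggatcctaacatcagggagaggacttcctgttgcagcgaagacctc
Ly6c2: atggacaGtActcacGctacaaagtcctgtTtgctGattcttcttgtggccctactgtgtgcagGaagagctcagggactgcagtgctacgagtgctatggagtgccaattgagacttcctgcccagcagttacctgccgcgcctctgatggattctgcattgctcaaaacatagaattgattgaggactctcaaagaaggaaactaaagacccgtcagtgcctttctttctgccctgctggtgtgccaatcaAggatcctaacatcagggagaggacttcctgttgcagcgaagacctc

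The libraries were primed at the poly(A) tail, so the ends of the transcripts matter most for the assignment. Over the last 300 bases of the same isoforms, Ly6c1 and Ly6c2 were 93.5% identical with an identical run of 124 bases. Ly6a was 80.1% and 81.0% identical to Ly6c1 and Ly6c2 there, with runs of 36 and 37 bases, and 82.0% and 81.7% identical in the coding sequence. Ly6e stood apart, with 45.5% to 49.2% identity to the other members over the last 300 bases.

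Many values of these genes were fractions of molecules. Dividing a library's values by its most frequent value gave molecules, mostly whole ones. Over all tested genes 4.45% of nonzero values were not whole molecules, against 8 of 12 for Ly6c1, 7 of 12 for Ly6c2, 5 of 11 for Ly6a and 2 of 12 for Ly6e. The sum of Ly6c1 and Ly6c2 was whole (within 0.011 molecules) in all but 2 libraries. In the CD244-positive thymus libraries, for instance, Ly6c1 had 3.33, 3.5 and 1.5 molecules, Ly6c2 had 87.67, 54.5 and 55.5, and the pair summed to 91, 58 and 57. How the authors counted reads that fit more than 1 gene is not given in the sources used here, so the split between Ly6c1 and Ly6c2 is uncertain and their sum is given beside it.

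Most molecules of the pair were assigned to Ly6c2. Ly6c1 took 4.11 ± 1.75% of the pair in thymus CD244-positive, 4.37 ± 1.71% in thymus CD244-negative, 4.63 ± 1.96% in lung CD244-positive and 8.13 ± 2.71% in lung CD244-negative libraries (SD, n = 3). The range in lung CD244-negative libraries (6.19% to 11.2%) lay above that in thymus CD244-positive libraries (2.63% to 6.03%), and the other pairs of groups overlapped.

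**Figure D1:**
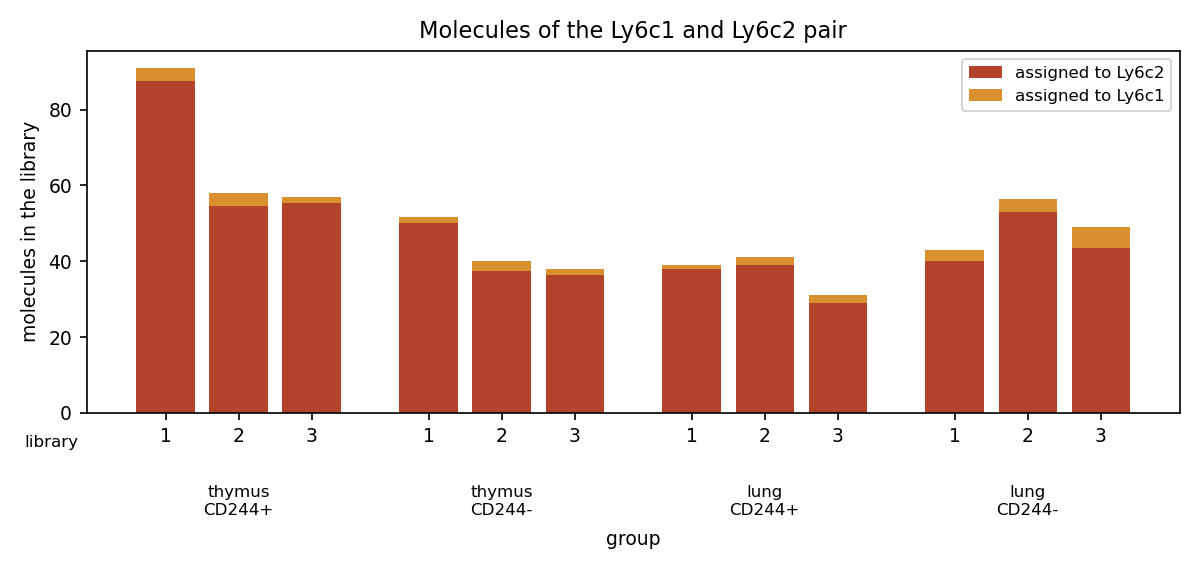
Molecules assigned to Ly6c1 and Ly6c2 in each of the 12 libraries (stacked bars, libraries numbered within their group). Ly6c2 makes up most of every bar, and the pair ranges from 31 molecules in lung CD244-positive library 3 to 91 in thymus CD244-positive library 1.

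Depth differed by group: CD244-positive libraries held 56615 to 71789 molecules in thymus and 42520 to 51436 in lung. CD244-negative libraries held 60120 to 67478 molecules in thymus and 29696 to 32196 in lung. A count of 3 molecules, which a count of 0 still allows, equals 0.418 to 0.530 molecules per 10000 in thymus and 0.583 to 1.01 in lung. Such limits cover counting error only. The lung CD244-positive libraries stood apart: myeloid markers summed to 120 ± 38.2 molecules per 10000 there, against 9.11 ± 0.457 in lung CD244-negative and 3.38 to 4.05 on average in thymus libraries (SD, n = 3). In lung 15 of 16 myeloid markers were higher in CD244-positive cells and 1 (Ccr2, which T cells also express) was lower. The 13 measured genes of the T cell receptor complex summed to 23.0 ± 6.32 in lung CD244-positive and 47.7 ± 3.43 in lung CD244-negative libraries. For the thymus these sums were 32.7 ± 2.12 (CD244-positive) and 37.7 ± 1.93 (CD244-negative). B cell and MHC class II markers summed to 82.0 ± 39.7 in lung CD244-positive libraries and to 0.542 ± 0.184 in lung CD244-negative ones, and immediate early genes to 82.6 ± 8.12 and 45.1 ± 2.56. NK cell markers were higher on the CD244-positive side in both tissues, at 9.21 ± 0.339 against 1.68 ± 0.181 in thymus and 13.0 ± 7.89 against 1.64 ± 0.595 in lung. Replicates of 1 group differed by more than counting noise in every pair, most in lung CD244-positive cells (chi-square per degree of freedom 1.65 to 1.70, against 1.09 to 1.23 in the other groups).

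Ly6a was lower on the CD244-positive side in both tissues, without overlap. It had 10, 5.33 and 3 molecules in thymus CD244-positive libraries and 17.33, 23.83 and 18.33 in thymus CD244-negative libraries. In lung it had 0, 3 and 2 molecules in CD244-positive libraries and 11, 12.5 and 6 in CD244-negative libraries. All CD244-positive libraries of a tissue lay below all CD244-negative ones. As levels these were 0.921 ± 0.437 against 3.06 ± 0.498 molecules per 10000 in thymus and 0.365 ± 0.353 against 3.24 ± 1.21 in lung (SD, n = 3). The 2 CD244-negative groups overlapped, as did the 2 CD244-positive groups, and the lung CD244-positive level was at or under the limit of 3 molecules in each library.

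Ly6e was abundant in every library but lowest in lung CD244-positive cells. It had 112, 76 and 58 molecules in thymus CD244-positive and 77.25, 97.92 and 99 in thymus CD244-negative libraries. In lung it had 36, 24 and 33 molecules in CD244-positive and 51, 40 and 59 in CD244-negative libraries. Per 10000 molecules, the thymus groups overlapped at 12.6 ± 2.73 and 14.2 ± 2.54, and lung CD244-negative cells, at 16.3 ± 2.65, overlapped with thymus CD244-negative cells. Lung CD244-positive cells had 6.48 ± 0.864, and all 3 libraries lay below the other 9.

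Ly6c2 was highest in lung CD244-negative cells and second highest in thymus CD244-positive cells, so the subsets were ordered oppositely in both tissues. It had 87.67, 54.5 and 55.5 molecules in thymus CD244-positive and 50.17, 37.5 and 36.5 in thymus CD244-negative libraries. In lung it had 38, 39 and 29 molecules in CD244-positive and 40, 53 and 43.5 in CD244-negative libraries, which were less deeply sequenced. The levels were 14.9 ± 2.36 in lung CD244-negative, 10.2 ± 1.84 in thymus CD244-positive, 7.53 ± 1.78 in lung CD244-positive and 6.37 ± 0.950 molecules per 10000 in thymus CD244-negative cells (SD, n = 3). The first did not overlap with the second, while each of the others overlapped with its neighbour in this order.

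Ly6c1 was near the limit of 3 molecules in every group, and its level was highest in the lung CD244-negative libraries. Those libraries had 3, 3.5 and 5.5 molecules, or 1.29 ± 0.367 per 10000. The other 9 libraries had 1 to 3.5 molecules, with group levels of 0.282 to 0.427 per 10000 that overlapped.

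**Figure D2:**
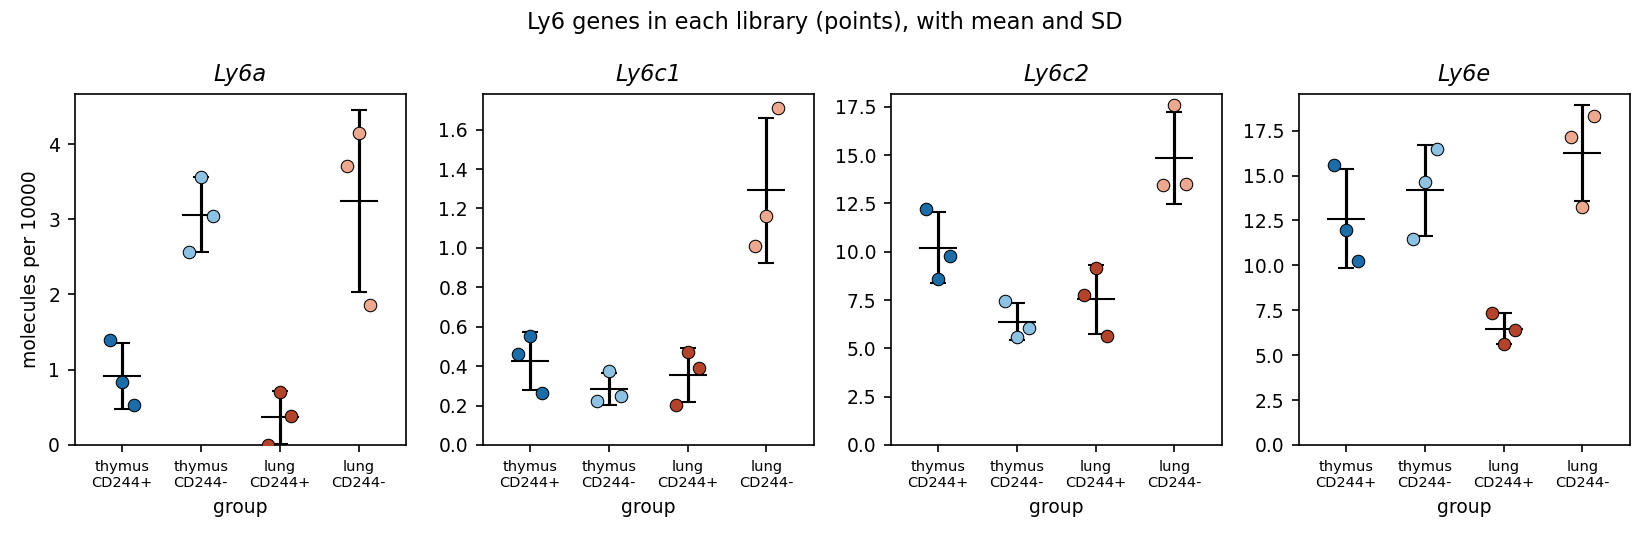
Molecules per 10000 of each Ly6 gene (y axes start at 0 and differ between panels) in the 4 groups; points are libraries, bars the mean and SD (n = 3). Ly6a is low in both CD244-positive groups, Ly6e is low in lung CD244-positive cells, and Ly6c1 and Ly6c2 are highest in lung CD244-negative cells.

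In thymus, Ly6a fell in CD244-positive cells and the other members did not pass the test. The fall of Ly6a was 1.45 on the log2 scale (log2 difference -1.45 ± 0.36 SE, limma adjusted p = 0.0305). Differences are of log2(value + 1) in deposited units, which understates changes at low values, and were adjusted by Benjamini-Hochberg over all 5138 tested genes. Of the 4 members 1 was called, where 0.409% of all tested genes were, and 0.0779% were called lower. Its groups did not overlap, as was so for 6.42% of tested genes in that direction. Ly6c2 had a log2 difference of 0.64 ± 0.20 (unadjusted p = 0.00158, adjusted p = 0.226) with groups that did not overlap, which held for 5.47% of tested genes in that direction. It passed when the 6 thymus libraries were fitted alone (adjusted p = 0.0242). Ly6c1 (0.28 ± 0.39) and Ly6e (-0.17 ± 0.18) had adjusted p-values of 1. Summed as 1 gene, Ly6c1 and Ly6c2 had 0.64 ± 0.19 (limma adjusted p = 0.191).

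The Ly6a call in thymus rested on few molecules. It was lost without CD244-positive library 2 or 3 (adjusted p = 0.180, 0.462) and without CD244-negative library 1, 2 or 3 (0.109, 0.272, 0.151). It was also lost with a pseudocount of 0.5 (0.133), with 1 common total for all libraries (0.0842), after scaling to genes of the T cell receptor complex (0.583) and with edgeR (0.0526), with a log2 difference of -1.26 or below in each of these 4 fits.

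In lung, 3 of the 4 members fell in CD244-positive cells and all 4 had groups that did not overlap. Ly6a fell (-2.12 ± 0.36 SE, adjusted p = 4.40e-06), and Ly6e (-1.26 ± 0.18, adjusted p = 7.26e-08) and Ly6c2 (-0.95 ± 0.20, adjusted p = 0.000228) fell with it. Ly6c1 had -1.05 ± 0.39 and did not pass (adjusted p = 0.0839). The pair Ly6c1 and Ly6c2, summed as 1 gene, fell with a log2 difference of -1.003 ± 0.19 (adjusted p = 5.37e-05). Among all tested genes 8.43% were called in lung, 2.82% were called lower, and 9.75% were lower with groups that did not overlap. The median of the members was -1.15 and that of all tested genes -0.01. The 3 calls held without any 1 of the 12 libraries, with largest adjusted p-values of 0.000515 for Ly6a, 0.0167 for Ly6c2 and 1.32e-05 for Ly6e.

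The same CD244-positive lung libraries carried the raised myeloid markers and the lower sum of T cell receptor complex genes. In bulk libraries, fewer cells of a type and less RNA per cell cannot be told apart. Set against the T cell receptor complex genes, Ly6a had 1.95 ± 2.06 molecules per 100 in lung CD244-positive and 6.85 ± 2.69 in lung CD244-negative libraries (SD, n = 3), with ranges of 0 to 4.11 and 3.75 to 8.46. Ly6c2 had 35.0 ± 16.0 against 31.1 ± 4.09 and Ly6e 28.9 ± 4.05 against 34.3 ± 6.67, both overlapping. With values scaled to these genes before the fit, Ly6a was the 1 member still called (-1.52 ± 0.41, adjusted p = 0.00370). Ly6e then had -0.23 ± 0.22 (adjusted p = 0.445) and Ly6c2 turned to 0.088 ± 0.25 (adjusted p = 0.809). That scaling shifted all tested genes by a median of 0.64 on the log2 scale. In that fit 1598 of 5694 tested genes were called higher and 18 lower. The part of the myeloid RNA in these results was not tested.

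**Figure D3:**
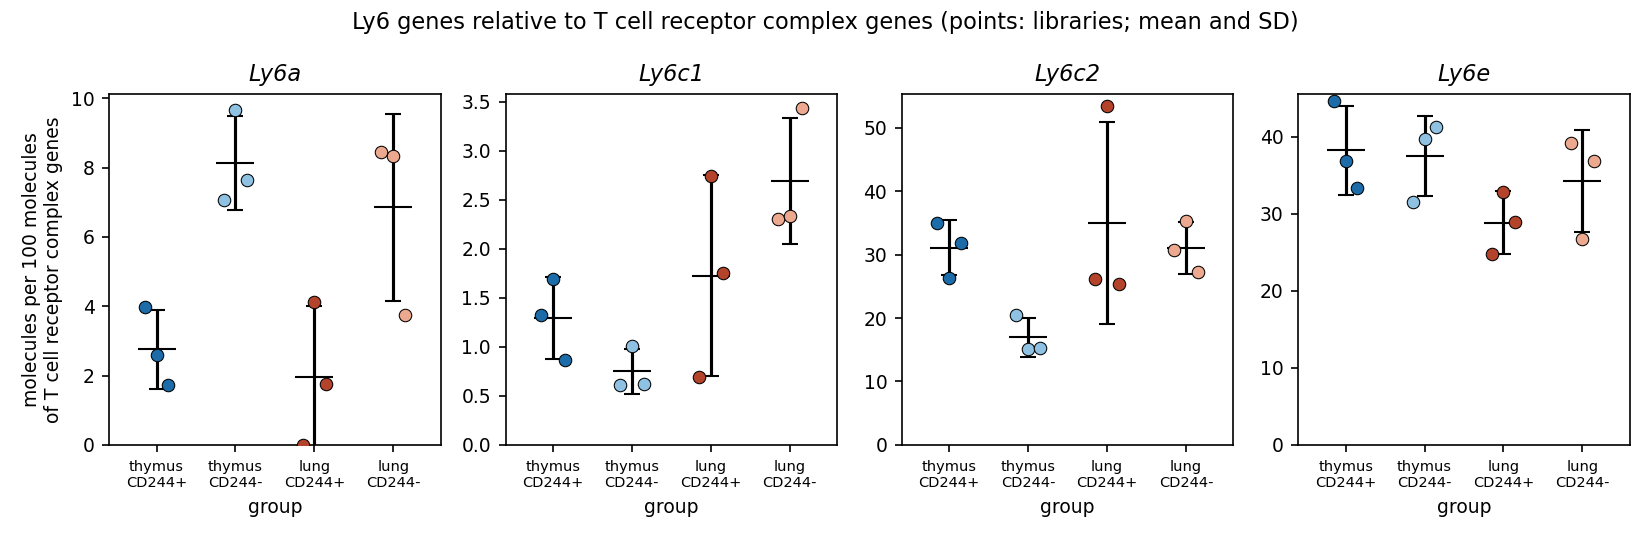
Molecules of each Ly6 gene per 100 molecules of the 13 measured T cell receptor complex genes; points are libraries, bars the mean and SD (n = 3), and y axes start at 0. On this scale the lung groups overlap for Ly6c1, Ly6c2, Ly6e and, by 1 library on each side, Ly6a, while in thymus Ly6a (2.76 against 8.12) and Ly6c2 (31.1 against 16.96) remain separate.

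Myeloid cells are themselves a known source of some Ly6 transcripts, Ly6c2 in monocytes above all, and Ly6a and Ly6c1 are abundant in lung endothelium. Markers of myeloid, endothelial and other cell types were therefore counted, and these do not single out Ly6C-bearing or Ly6a-bearing cells. Lyz2, Adgre1 and Itgam are among the 15 of 16 myeloid markers called higher in lung CD244-positive cells. They had 71.5, 39 and 18 molecules in those libraries and none in lung CD244-negative libraries. By smallest p the myeloid list was led in lung by Apoe (5.43 ± 0.39), Mrc1 (4.26 ± 0.39) and C1qc (4.26 ± 0.39). Which myeloid cells this RNA came from was not tested. Ly6c2 was lower in lung CD244-positive cells, and the part of myeloid RNA in its level was not tested. Ccr2, which monocytes rich in Ly6C also express, was the 1 myeloid marker called lower in lung CD244-positive cells (-1.40 ± 0.28, adjusted p = 0.000107). Of 16 endothelial markers 10 had no molecule in any library, Cdh5, Cldn5 and Emcn among them. The list summed to 0.316 ± 0.0373 in thymus CD244-positive and 0.204 ± 0.225 per 10000 in thymus CD244-negative libraries. In lung it summed to 1.08 ± 0.841 in lung CD244-positive and 1.75 ± 0.543 per 10000 in lung CD244-negative libraries. Neutrophil markers summed to 0.573 ± 0.503 and 0.447 ± 0.515 in the same order, and lung epithelial markers to 3.88 ± 2.40 and 2.65 ± 0.923. Cd8a and Cd8b1 had 1 and 1.5 molecules in lung CD244-positive libraries and none in lung CD244-negative libraries.

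The CD244 effect was compared between tissues as the lung difference minus the thymus difference. Ly6c2 (-1.59 ± 0.28 SE, adjusted p = 2.65e-05) and Ly6e (-1.09 ± 0.26, adjusted p = 0.00432) differed between tissues, and Ly6a (-0.67 ± 0.51, adjusted p = 0.634) and Ly6c1 (-1.33 ± 0.55, adjusted p = 0.248) did not pass. The sum of Ly6c1 and Ly6c2 had -1.64 ± 0.27 (limma adjusted p = 8.16e-06). So 2 of 4 members were called, where 3.27% of all tested genes were, and 0.623% were called lower. Both calls held without any 1 library, with largest adjusted p-values of 0.000714 for Ly6c2 and 0.0458 for Ly6e. With edgeR on 9 libraries Ly6c2 was called (-1.46, adjusted p = 0.00291) and Ly6e was not (-0.78, adjusted p = 0.166). Scaled to genes of the T cell receptor complex neither was called (Ly6c2 -0.75, adjusted p = 0.188; Ly6e -0.26, adjusted p = 0.672).

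**Figure D4:**
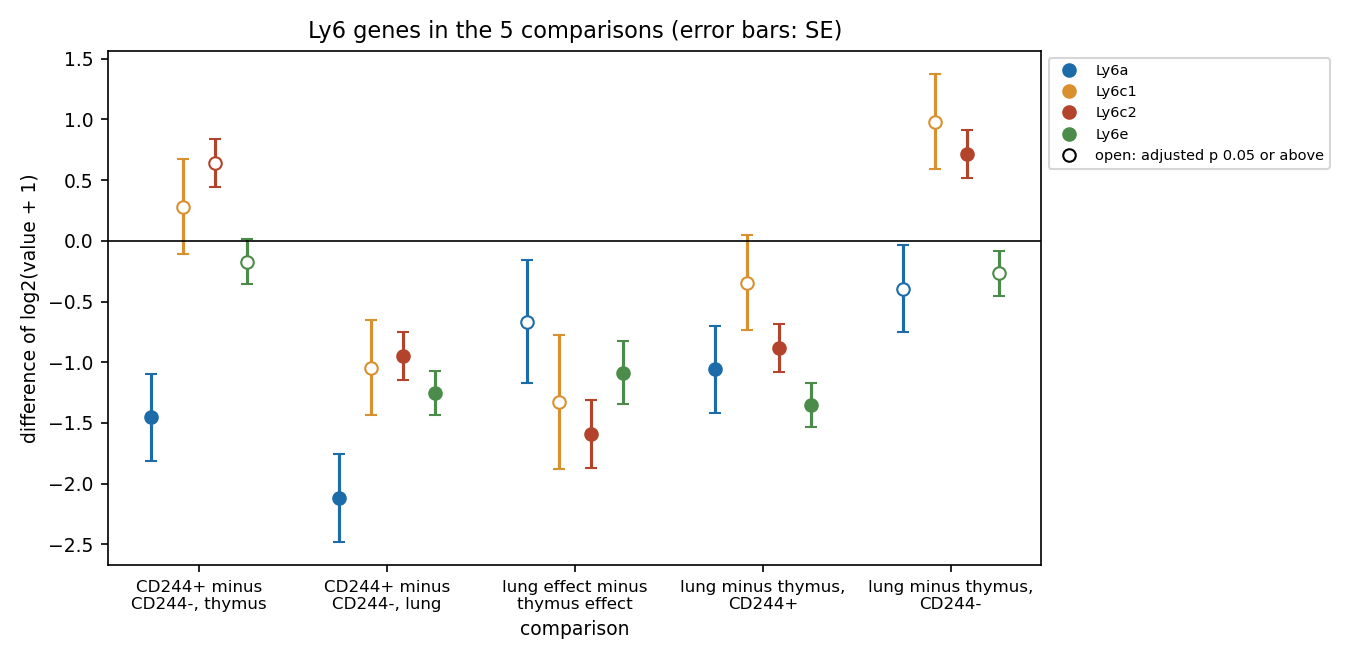
Differences of log2(value + 1) for each Ly6 gene in the 5 comparisons; error bars are SE, and filled points have an adjusted p under 0.05. Ly6c2 lies above 0 in thymus (0.64, not called) and below 0 in lung (-0.95), and Ly6a lies below 0 in both.

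Lung and thymus were then compared within each subset, and these comparisons use the same libraries as those above. The deposited columns were scaled to 1 total within each tissue and a total 1.39 times larger in thymus than in lung, so levels across tissues depend on that choice. As deposited, the median log2 difference of all tested genes was -0.27 in CD244-positive and -0.29 in CD244-negative cells, and 1 common total shifted it by 0.26 and 0.25. Each member's value is therefore given as deposited and with a common total. Immediate early genes, which cell preparation can induce, summed to 13.0 ± 1.46 and 13.2 ± 0.689 per 10000 in CD244-positive and CD244-negative thymus libraries, below both lung groups. Their part in the differences between tissues was not tested.

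Among CD244-negative cells, Ly6c2 rose from thymus to lung. The log2 difference was 0.71 ± 0.20 (adjusted p = 0.00825) as deposited and 1.17 ± 0.20 (adjusted p = 1.63e-05) with a common total. Ly6c1 pointed the same way, at 0.98 ± 0.39 (adjusted p = 0.0938) as deposited, and was called with a common total (1.26 ± 0.39, adjusted p = 0.0397). Both had groups that did not overlap as deposited, as did 4.75% of tested genes in that direction. The sum of Ly6c1 and Ly6c2 had 0.77 ± 0.19 as deposited (limma adjusted p = 0.00271). Ly6a (-0.39 ± 0.36 as deposited and 0.020 ± 0.37 with a common total) and Ly6e (-0.27 ± 0.18 and 0.19 ± 0.18) were not called either way and changed sign. As deposited 1 of 4 members was called, against 10.7% of tested genes in either direction and 2.18% called higher. In the same comparison Epas1, the 1 endothelial marker tested, was higher in lung (1.41 ± 0.40, adjusted p = 0.0102), and so was Ccr2 (1.37 ± 0.28, adjusted p = 0.000131), both as deposited. Their part in the rise of Ly6c2 was not tested. The Ly6c2 call as deposited was lost without thymus CD244-negative library 2 (adjusted p = 0.0632) or lung CD244-negative library 2 (0.0775). It held with edgeR (1.10, adjusted p = 4.92e-05) and when scaled to genes of the T cell receptor complex (0.84, adjusted p = 0.0312).

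Among CD244-positive cells, Ly6e fell from thymus to lung under both totals. Its log2 difference was -1.35 ± 0.18 (adjusted p = 3.05e-09) as deposited and -0.90 ± 0.18 (adjusted p = 0.000149) with a common total. Ly6c2 (-0.88 ± 0.20, adjusted p = 0.000393) and Ly6a (-1.06 ± 0.36, adjusted p = 0.0314) were called as deposited and not with a common total (-0.43, adjusted p = 0.191, and -0.82, adjusted p = 0.172). Ly6c1 was not called (-0.34 ± 0.39, adjusted p = 0.628, and -0.13 ± 0.39, adjusted p = 0.911, with a common total). The sum of Ly6c1 and Ly6c2 had -0.87 ± 0.19 as deposited (limma adjusted p = 0.000294). As deposited 3 of 4 members were called lower, against 14.9% of tested genes in either direction and 9.61% lower. The same 3 had groups that did not overlap as deposited, as did 21.8% of tested genes in that direction. In molecules per 10000, the groups of Ly6a and Ly6c2 overlapped and those of Ly6e did not. These lung libraries are those with the myeloid RNA, and scaled to genes of the T cell receptor complex no member was called in limma (0 of 4 had an unadjusted p under 0.05; Ly6e -0.39, adjusted p = 0.250). With edgeR, which compares shares of molecules adjusted by TMM factors, 1 of 3 tested members was called (Ly6e -0.59, adjusted p = 0.0473). Ly6a lost its call without thymus CD244-positive library 1 or 2 (adjusted p = 0.208, 0.0710) or lung CD244-positive library 1 (0.262).

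**Figure D5:**
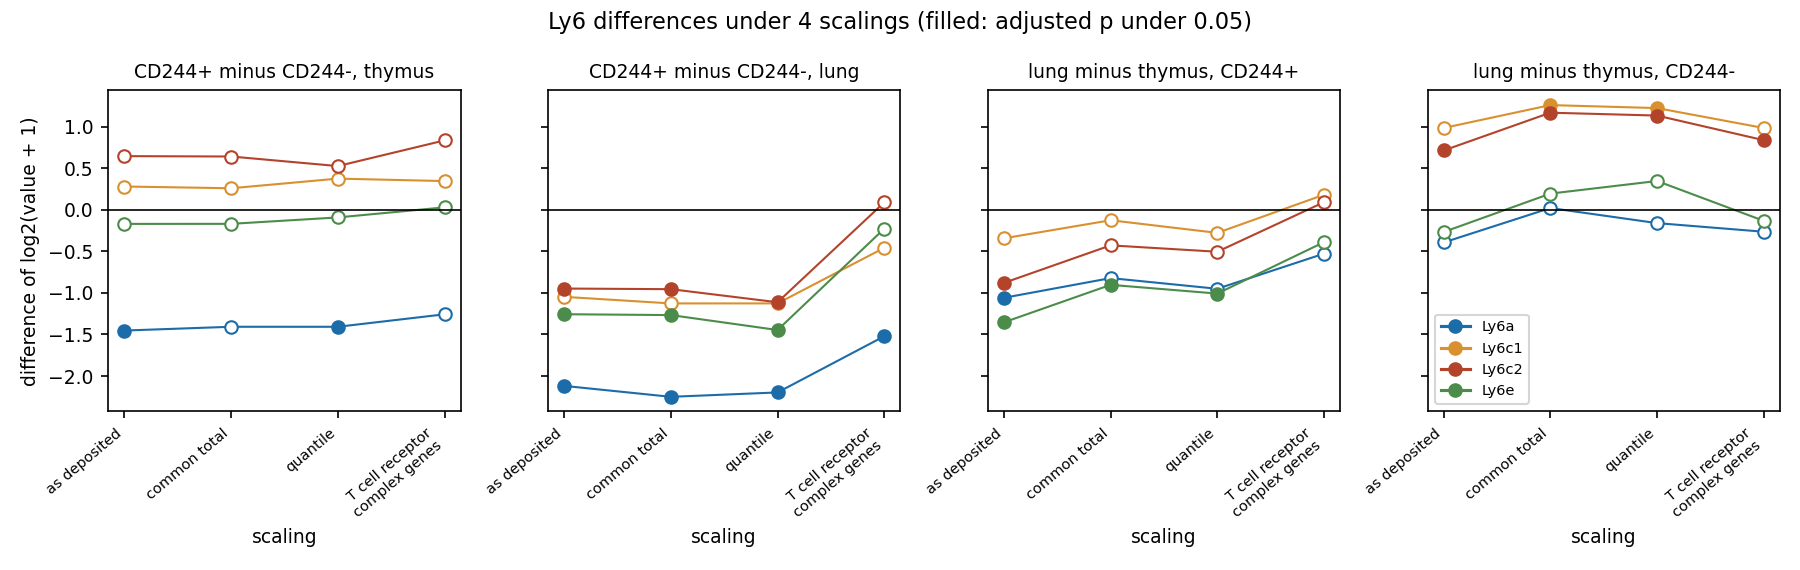
Differences of log2(value + 1) for each Ly6 gene with values as deposited, with a common total, after quantile normalization and scaled to genes of the T cell receptor complex (lines only join the 4 scalings of a gene; filled, adjusted p under 0.05). In lung the differences of Ly6c2 and Ly6e move close to 0 under the last scaling (0.088 and -0.23), and Ly6a stays called at -1.52.

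Other genes of the Ly6 and urokinase receptor domain family were almost silent. Of 37 listed genes 34 were in the table, 26 of them had no molecule, 7 had at least 1 molecule in all, and 0 passed the filter for testing. Ly6g5b had the most, 11 molecules, of which 0 were in lung CD244-positive libraries. Plaur, the urokinase receptor gene that myeloid cells express, had 5 molecules, all in lung CD244-positive libraries. Bambi had 4 molecules, Ly6k 2, and Lypd6 and Lynx1 1 each. Ly6i and Ly6f had only fractions of molecules in any library.

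Genes that make and attach the GPI anchor showed no call in any of the 5 comparisons in limma (0 of 10 tested). At an unadjusted p under 0.05 they numbered 2 in thymus, 0 in lung, 1 in the difference between tissues, 1 for lung against thymus in CD244-positive and 4 in CD244-negative cells, and none was abundant enough for the edgeR fit. Their median log2 difference was -0.18 in thymus and 0.35 in lung, against -0.02 and -0.01 over all tested genes. Pigs, a subunit of the enzyme that transfers the anchor to proteins, had 0.73 ± 0.41 in lung (adjusted p = 0.334). Of all tested genes 0.409% were called in thymus, 8.43% in lung and 3.27% in the difference between tissues. For lung against thymus 14.9% were called in CD244-positive and 10.7% in CD244-negative cells. With 10 anchor genes, 0 calls can hardly be told from these shares and are not read as a lack of change.

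Other GPI-anchored surface proteins of lymphocytes and myeloid cells moved in both directions. In thymus 1 of 9 tested genes fell, Izumo1r, a folate receptor gene of T cells (-1.69 ± 0.38, adjusted p = 0.00956). Of all tested genes 0.409% were called in thymus, and 0.0779% were called lower. In lung 2 fell, Izumo1r (-1.37 ± 0.38, adjusted p = 0.00939) and the T cell antigen gene Thy1 (-1.72 ± 0.30, adjusted p = 7.08e-06), and 1 rose, the monocyte and macrophage receptor gene Cd14 (4.27 ± 0.40, adjusted p = 4.36e-15). Thy1 is also counted among the T cell receptor complex genes and Cd14 among the myeloid markers, whose sums moved the same way. Of all tested genes 8.43% were called in lung, and 2.82% were called lower. The medians of the 9 genes were 0 in thymus and -0.16 in lung.

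Interferon-stimulated genes, a group to which Ly6a and Ly6e belong, were not called between the CD244 subsets in thymus, and 5 of 32 were called in lung. In thymus 0 of 32 tested genes were called in limma (4 had an unadjusted p under 0.05) and 0 of 10 in edgeR (1 unadjusted). In limma 0.409% of all tested genes were called there, so 0 of 32 is not read as a lack of change. In lung 2 rose and 3 fell, where 8.43% of all tested genes were called, and the libraries with the myeloid RNA are on 1 side of this comparison. Those that rose were Socs3, a feedback inhibitor of cytokine signalling (2.24 ± 0.39, adjusted p = 6.70e-06), and Ifitm3 (1.65 ± 0.39, adjusted p = 0.00136). Among those that fell were the GTPase gene Gbp7 (-1.60 ± 0.32, adjusted p = 0.000111) and Psmb8, an immunoproteasome subunit (-0.90 ± 0.28, adjusted p = 0.0261). The median of the 32 genes was -0.14 in thymus and -0.19 in lung. Between tissues, as deposited, 16 of 32 were lower and 1 higher in lung among CD244-positive cells, where 9.61% of all tested genes were called lower. Among CD244-negative cells 12 of 32 were lower and 0 higher, where 8.52% of all tested genes were called lower. The medians of the list were -0.93 and -0.51, against -0.27 and -0.29 over all tested genes. With a common total 7 and 4 of 33 tested were lower, where 3.96% and 2.89% of all tested genes were, and with edgeR 2 and 1 of 10 were called. Ifit1 in CD244-negative cells had -1.68 ± 0.39 (adjusted p = 0.00116) as deposited and -1.54 ± 0.40 (adjusted p = 0.00797) with a common total. In the latter cells Ly6c2 was called higher in lung.

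Of the interferon and interleukin 27 receptors and their kinases, 7 were tested. The 5 comparisons share the same 4 group means, so their signs are not independent. Ifngr1, which encodes a chain of the interferon gamma receptor, shared its signs with Ly6c2 in 4 of 5 comparisons. It rose in thymus CD244-positive cells (0.85 ± 0.21, adjusted p = 0.0281), had -0.35 ± 0.21 in lung (adjusted p = 0.360), had a CD244 effect that differed between tissues (adjusted p = 0.00569) and rose from thymus to lung in CD244-negative cells (1.40 ± 0.21, adjusted p = 1.11e-07, as deposited, and 1.84 ± 0.20, adjusted p = 2.52e-10, with a common total). Between tissues in CD244-positive cells it had 0.20 ± 0.21 (adjusted p = 0.587) as deposited and was called higher with a common total (0.65 ± 0.20, adjusted p = 0.0242), while Ly6c2 fell as deposited. Jak1, a kinase of these receptors, fell in lung CD244-positive cells (-0.73 ± 0.21, adjusted p = 0.0148), in the libraries with the myeloid RNA. The remaining members of this list were not called in the comparisons between subsets. Between tissues in CD244-positive cells, Il27ra was called lower as deposited (-1.27 ± 0.41, adjusted p = 0.0208). It was not called with a common total (-1.04 ± 0.43, adjusted p = 0.118). In CD244-negative cells Ifnar1 was called higher with a common total (1.40 ± 0.42, adjusted p = 0.0301) and not as deposited (1.11 ± 0.41, adjusted p = 0.0681).

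The genes whose level was most like each member over the 12 libraries were found by Pearson's correlation of log2(value + 1) among the 5138 tested genes. The 12 libraries are 4 groups of 3, so the value mostly reflects the order of the groups. For Ly6a they were Gimap4 (0.93), Pitpnm2 (0.91), Lyst, Emg1 and Dok2. For Ly6e they were Gimap3 (0.96), Tmsb10 (0.95), Rps27rt, Limd2 and Chordc1. For Ly6c2 they were Rasgrp2 (0.90), Cnot6, Rab8a, Lrwd1 and Cipc, and for Ly6c1 Vgll4 (0.91), Mirt1, Dedd2 and Ccr2. Among the members, Ly6a was closest to Ly6e (0.75) and Ly6c1 to Ly6c2 (0.63), and the other pairs had 0.35 to 0.49.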

How the data were processed

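Each library was made from 100 sorted cells. Per the labels' protocols, ERCC spike-in RNA was added, reverse transcription used an oligo-dT primer with a molecular barcode, and template switching and PCR followed. The submitters' processing notes name STAR, without a version, and the build mm10. How molecules were counted, with which annotation, and how they were scaled is not given in the sources used here. The values the authors deposited are a signal for every gene in each library that behaves as molecules times 1 scaling constant per library. Of the nonzero values 94.3% to 95.9% were whole multiples of the most frequent value (tolerance 1e-06) and all were multiples of 0.01 of it. The table had 0 ERCC rows. Because these were not raw counts, the test for normalized values was used.

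Molecules were recovered by dividing by that constant. Genes above 1 unit in at least 3 libraries (5138) were fitted as log2(value + 1) with limma 3.58.1 (trend and robust options, R 4.3.3), 1 mean per group over all 12 libraries. Two-sided p-values were adjusted over all tested genes (Benjamini-Hochberg), and those under 0.05 were called. No exact permutation test was used, since 3 libraries against 3 give no p under 0.1. The 5 comparisons were the CD244 effect in thymus, in lung and its difference, and lung minus thymus in each subset. Alternatives were quantile normalization, a common total, scaling to the T cell receptor complex genes, no filter, a stricter filter (5 units), pseudocounts of 0.5 and 5, sample quality weights, a replicate block, only the libraries compared, each library left out, and edgeR 4.0.16 (quasi-likelihood, TMM) on rounded molecules. It used the 9 libraries whose low values were whole multiples of 1 step, tested 1156 genes and left out Ly6c1. Dropping fractions of molecules, summing Ly6c1 and Ly6c2, and a common total for the gene lists were added after seeing the data. The fit was tested on simulated data. Sequences and positions came from GENCODE M21.

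The members and the lists were chosen with earlier results of these data known. Named were the 4 members in every comparison, the 5 genes most like each, up to 4 genes per list with the smallest p, family members with a molecule and neighbours in the cluster. Not all are printed, and some named by this rule are not reported here. Cd8a, Cd8b1 and the myeloid and endothelial markers given singly were chosen after their values were seen.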

Additional observations from a re-analysis of the deposited data

Results flagged for a closer look

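The CD244 effect differed between lung and thymus, by the test of the difference itself, for 2 members. The lung effect minus the thymus effect was -1.59 ± 0.28 SE for Ly6c2 (limma adjusted p = 2.65e-05). Ly6c2 was higher in 3 of 3 CD244-positive libraries than in all CD244-negative libraries of the thymus, and lower in 3 of 3 in the lung. Such separation in these directions held for 5.47% of tested genes in thymus and 9.75% in lung. The thymus difference of Ly6c2 was not called (limma adjusted p = 0.226). For Ly6e the difference was -1.09 ± 0.26 SE (adjusted p = 0.00432), with overlapping groups in thymus and 3 of 3 CD244-positive libraries lower in lung. Both came beside the myeloid RNA of the lung CD244-positive libraries, whose part was not tested. Scaled to genes of the T cell receptor complex, neither difference was called (limma adjusted p = 0.188 for Ly6c2 and 0.672 for Ly6e). With edgeR on 9 libraries Ly6c2 was called (adjusted p = 0.00291) and Ly6e was not (adjusted p = 0.166).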

How the results depend on the processing

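For the 4 members in the 5 comparisons, 200 of 230 alternative values kept their direction and their side of the threshold, as did 230 of 240 with 1 library left out, where 10 lost their call and 0 changed sign. The number of members called without 1 library was 0 to 1 in thymus (1 with all libraries), 3 to 3 in lung (3), 2 to 2 for the difference between tissues (2), 2 to 3 for lung against thymus in CD244-positive (3) and 0 to 1 in CD244-negative cells (1). In thymus it was 0 with a common total, with scaling to the T cell receptor complex genes, with a pseudocount of 0.5 and with edgeR (2 members at an unadjusted p under 0.05 in each of these fits), and 2 with only the libraries compared. Scaling to the T cell receptor complex genes gave 1 in lung, 0 for the difference between tissues (1 unadjusted) and 0 for lung against thymus in CD244-positive cells (0 unadjusted). Of 5694 tested genes it called 1598, 437 and 817 higher and 18, 2 and 67 lower in the same order. Quantile normalization and a common total gave 1 in that last comparison and 2 in CD244-negative cells. With edgeR, which tested 3 members, it was 1 for the difference between tissues and 1 for lung against thymus in CD244-positive cells. Values that changed sign under scaling to the T cell receptor complex genes were Ly6e in thymus (0.028), Ly6c2 in lung (0.088), and Ly6c1 (0.18) and Ly6c2 (0.090) for lung against thymus in CD244-positive cells. In CD244-negative cells they were Ly6a with a common total (0.020) and edgeR (0.16), and Ly6e with quantile normalization (0.34), a common total (0.19) and edgeR (0.19). A common total and that scaling move every gene by construction, and edgeR compares shares of molecules adjusted by TMM factors. Quantile normalization shifted all tested genes by a median of 0.26 between tissues in CD244-negative cells, against 0.25 with a common total. None of these settings keeps the larger deposited total of thymus, and no further cause was tested. The stricter filter removed Ly6c1. Deviations of same-numbered libraries correlated at -0.02 to 0.01. Much of such deviations is counting noise, so this cannot settle whether the replicate numbers pair the libraries. The fit with a replicate block called 1, 3, 2, 3 and 1 members in the order above, as without it. Depth limits Ly6c1, and Ly6a in CD244-positive cells, to a few molecules per library.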

Other observations

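Summed over the 4 genes, Ly6 transcripts in thymus were at 24.2 ± 4.81 molecules per 10000 in CD244-positive and 23.9 ± 2.10 in CD244-negative cells (SD, n = 3), with Ly6a lower and Ly6c2 higher in the former. In lung the sum was 14.7 ± 1.67 in CD244-positive and 35.6 ± 0.448 in CD244-negative cells. The lung CD244-negative libraries varied least in this sum although the single genes varied more, with Ly6a at 1.86 to 4.15 and Ly6e at 13.3 to 18.3 molecules per 10000. Their sums were 105, 109 and 114 molecules. Counting error alone gives a wider spread on average, so the small SD is not read as a balance between the genes.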
